A study of Homo sapiens with 6 samples.

Results

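HHEX and the TLE co-repressors are 6 of the 58735 named genes in a count table of 8505C cells: HHEX, TLE1, TLE2, TLE3, TLE4 and AES. They were chosen by gene name, but with earlier results of these data known. The HHEX transcript lay below the range of the control libraries in the libraries labelled KD2 and KD3 and above it in the library labelled KD1. TLE1 and TLE3 lay above every control in all 3 KD libraries, in TLE1 only where libraries were scaled beyond their totals. TLE4, the most abundant TLE transcript per kilobase in 4 of the 6 libraries, stood at 250.03% of the control mean in KD1, 289.9% in KD2 and 67.1% in KD3. No member passed the test between the groups, and TLE3 came nearest (log2 fold change 1.70).

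8505C is an established human cell line from an anaplastic carcinoma of the thyroid, a dedifferentiated tumour. The knockdown group holds 3 libraries titled HHEX_shRNA, with the genotype HHEX KD, and the control group 3 libraries titled CTRL_shRNA, with the genotype wild-type; all 6 are labelled untreated. The series design calls them biological replicates. The labels do not mention separate cultures, and a p-value here measures the spread between libraries only, which may be technical. The sources used here do not give the hairpin sequence, its vector or the number of hairpins. The count table names its columns KD1 to KD3 and control1 to control3, whereas the titles number the replicates 1_1, 1_2 and 2_1 in both groups. In each group 2 of 3 libraries thus share a leading number, which may mark a closer relation than n = 3 implies. A column shows the group of a library and not its title.

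HHEX is a homeodomain transcription factor of endoderm and blood vessel precursors. In the thyroid it is needed for the growth of the gland's primordium and is expressed there beside NKX2-1, PAX8 and FOXE1. It can repress its targets by binding TLE proteins, which do not touch DNA themselves. Many, but not all, factors that recruit TLE carry short peptide motifs that dock on the WD-repeat domain of TLE1, TLE2, TLE3 and TLE4. The TLE proteins form tetramers through their amino-terminal glutamine-rich domain and bring histone deacetylases to the target gene. AES, named TLE5 in RefSeq, holds the glutamine-rich domain without the WD repeats and can oppose the longer members.

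HHEX (ENSG00000152804) lies on chromosome 10, 92689951 to 92695646, plus strand, and TLE4 (ENSG00000106829) on chromosome 9, 79571773 to 79726882, plus strand. TLE1 (ENSG00000196781) lies on the minus strand of chromosome 9 from 81583683 to 81689305. It is the next protein-coding gene to the right of TLE4, at a distance of 1856801 bases. PSAT1, to the left of TLE4, is nearer, at 1241680 bases. TLE2 (ENSG00000065717; chromosome 19, 2997638 to 3047635) and AES (ENSG00000104964; chromosome 19, 3052910 to 3063107) are neighbours on the minus strand. TLE3 (ENSG00000140332) lies on chromosome 15, 70047790 to 70098176, minus strand. These coordinates are those of the deposited table and equal the GENCODE release 29 annotation of GRCh38.

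The promoter windows of HHEX, TLE3 and TLE4 are printed because these 3 genes gave the values that the results turn on, and because motifs of the factors concerned can be read in them. All 6 members matched a RefSeq promoter entry. Each window holds the 250 bases before the RefSeq start nearest to the 5′ end of the gene in the table (GRCh38.p14), written 5′ to 3′ on the strand of the gene. That start lies 4 bases from the gene's 5′ end in the table for HHEX, 259 for TLE3 and 192 for TLE4, so that the TLE3 window lies wholly and the TLE4 window mostly inside the gene as the table bounds it. The windows are chr10:92689705-92689954 (plus) for HHEX, chr15:70097918-70098167 (minus) for TLE3 and chr9:79571715-79571964 (plus) for TLE4. Capitals mark matches on either strand to ATTA (the core of many homeodomain sites), CTTTGA (the core of TCF/LEF sites), GGGCGG (the GC box bound by SP1) and CCAAT (the CCAAT box bound by NF-Y).
HHEX: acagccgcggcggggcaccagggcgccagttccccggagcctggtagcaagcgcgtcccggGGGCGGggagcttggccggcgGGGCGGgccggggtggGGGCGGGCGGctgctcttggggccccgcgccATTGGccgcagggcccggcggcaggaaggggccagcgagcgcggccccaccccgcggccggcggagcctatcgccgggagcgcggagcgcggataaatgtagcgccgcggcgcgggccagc
TLE3: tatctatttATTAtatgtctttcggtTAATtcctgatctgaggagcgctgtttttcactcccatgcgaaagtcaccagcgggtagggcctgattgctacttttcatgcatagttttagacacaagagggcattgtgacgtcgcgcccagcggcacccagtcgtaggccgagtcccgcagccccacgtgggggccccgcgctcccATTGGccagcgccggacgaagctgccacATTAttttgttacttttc
TLE4: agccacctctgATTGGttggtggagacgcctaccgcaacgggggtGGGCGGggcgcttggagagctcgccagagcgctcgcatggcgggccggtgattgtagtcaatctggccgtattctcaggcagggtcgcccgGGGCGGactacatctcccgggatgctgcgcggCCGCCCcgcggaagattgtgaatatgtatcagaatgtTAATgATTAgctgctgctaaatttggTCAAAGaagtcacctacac

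The HHEX window had 81.2% G and C and 38 CG dinucleotides, against medians of 58% and 11 over 35116 RefSeq promoters of the same length. It held 4 GC boxes, the 2 nearest to the start overlapping each other by 2 bases, 1 CCAAT box and no match to ATTA or CTTTGA. The TLE3 window held 3 matches to ATTA and 1 CCAAT box. In the TLE4 window there were 2 matches to ATTA, 1 to CTTTGA, 3 GC boxes and 1 CCAAT box. The windows of TLE1, TLE2 and AES, which are not printed, held no match to ATTA or CTTTGA. CAATTAAA, a sequence reported for HHEX binding that itself holds ATTA, was in the window of none of the 6 genes, and TATAAA was in none of them either. Over all promoters CAATTAAA was in 0.817%, ATTA in 47.4%, CTTTGA in 11.2%, GGGCGG in 42.6%, CCAAT in 32.0% and TATAAA in 10.7%. A match is a run of letters and not a measured binding site.

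Total counts over named genes ranged from 14052770 to 15067566 in the KD libraries and from 13333245 to 15144176 in the control libraries, and 14280 genes passed a filter on low counts by edgeR. Levels are given as CPM, the count of a gene scaled to the size of its library with TMM factors. Intervals are exact 95% Poisson intervals, which cover counting error only, since PCR reads without molecular identifiers are not independent molecules. The libraries labelled KD1 and KD2 stood apart from KD3. Tested alone against the 3 controls with edgeR's quasi-likelihood test, at a Benjamini-Hochberg adjusted p under 0.05, 2201 genes (15.4%; 7.98% higher and 7.43% lower) were called in KD1, 2321 (16.3%; 8.54% higher and 7.71% lower) in KD2 and 158 (1.11%; 0.77% higher and 0.336% lower) in KD3. This test compares single libraries and not the condition, since a lone library is assumed to vary as the controls do. HHEX goes against the label of KD1, so that KD1, KD2 and KD3 stand hereafter for the libraries that carry these labels.

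**Figure D1:**
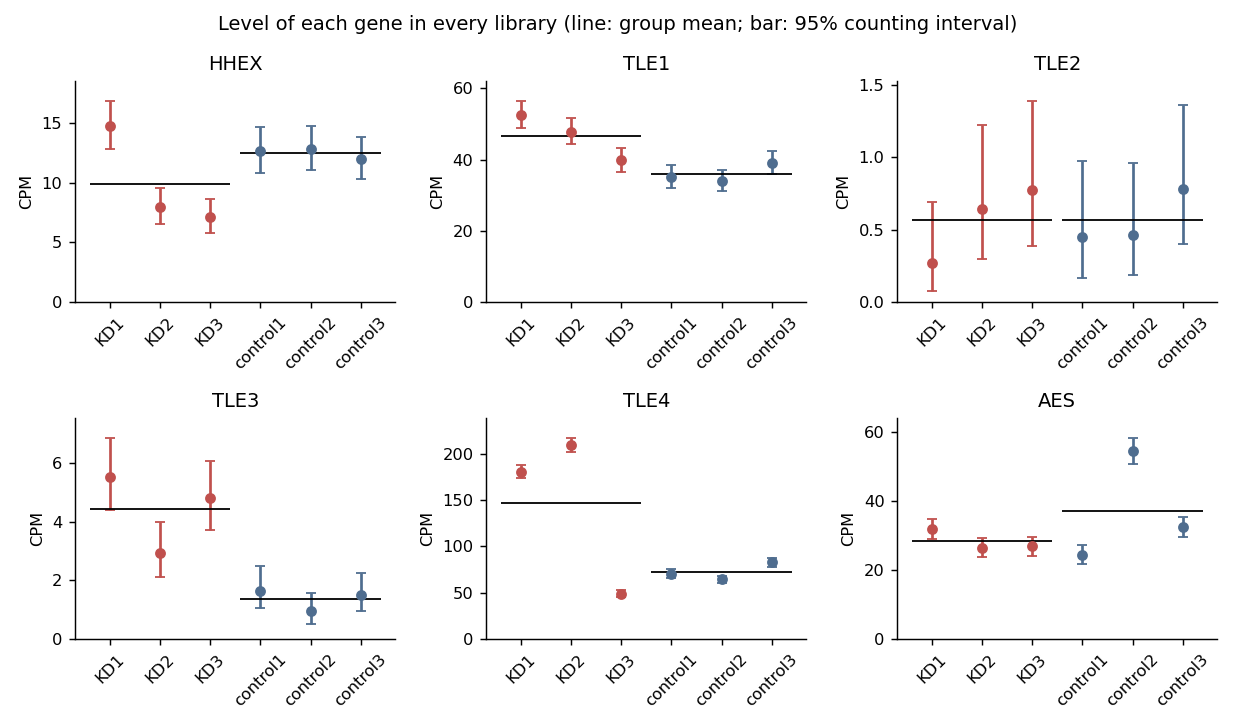
CPM of HHEX, TLE1, TLE2, TLE3, TLE4 and AES in each of the 6 libraries, 3 KD libraries at the left (red) and 3 control libraries at the right (blue) of each panel, with its own axis from 0. Points are single libraries, bars their 95% Poisson intervals and horizontal lines the group means; TLE4 lies at 181 and 210.1 CPM in KD1 and KD2 and at 48.6 CPM in KD3.

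HHEX had 14.8 CPM in KD1 (219 counts, interval 12.9 to 16.9), 7.93 in KD2 (111 counts, 6.52 to 9.55) and 7.12 in KD3 (101 counts, 5.80 to 8.65), against 12.6, 12.8 and 12.0 in control1, control2 and control3. KD1 was above all controls and KD2 and KD3 below all of them, so that the groups overlap. The interval of KD1 overlaps those of all 3 controls, and the intervals of KD2 and KD3 overlap none of them. Of all tested genes, KD1, KD2 and KD3 lay above every control in 34.2%, 34.5% and 30% and below every control in 36.9%, 37.5% and 31.6%. Relative to the control mean, HHEX stood at 118% in KD1, 63.6% in KD2 and 57.1% in KD3. The group means were 9.94 ± 4.20 CPM in the KD libraries and 12.5 ± 0.442 CPM in the controls (SD, n = 3 each; exact two-sided permutation p = 0.4). With 3 libraries against 3 that test cannot go below 0.1. The group fit gave a log2 fold change of −0.33 (SE 0.28, 95% interval −0.96 to 0.31; edgeR adjusted p = 0.527). Without KD1 it was −0.73 (SE 0.22, −1.23 to −0.22; edgeR adjusted p = 0.330), without KD2 −0.18 (0.859) and without KD3 −0.11 (0.754).

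Against the controls alone, the log2 difference of HHEX was 0.24 in KD1 (SE 0.24, edgeR adjusted p = 0.541), −0.65 in KD2 (SE 0.26, 0.115) and −0.81 in KD3 (SE 0.27, 0.211). None of these passed the threshold. The spread of HHEX between the 3 KD libraries, an SD of 4.20 CPM, was larger than the difference of the group means, −2.53 CPM. Its spread between the controls, 0.442 CPM, was the smallest of the 6 members in relation to the mean. No annotated gene overlaps HHEX, so that no partner on either strand shares its bases.

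TLE3, a co-repressor of Wnt targets that also acts in fat cell differentiation, had 5.53, 2.93 and 4.79 CPM in KD1, KD2 and KD3, against 1.64, 0.929 and 1.496 CPM in the controls. Every KD library was above every control. These values rest on 82, 41 and 68 counts in the KD libraries and on 22, 14 and 23 counts in the controls. The Poisson interval of KD2, 2.10 to 3.97 CPM, overlaps those of control1, 1.03 to 2.49 CPM, and control3, 0.949 to 2.25 CPM, and those of KD1 and KD3 overlap none of the controls. The means were 4.42 ± 1.34 CPM in the KD libraries and 1.36 ± 0.377 CPM in the controls (SD, n = 3 each; exact two-sided permutation p = 0.1, the smallest it allows). The group log2 fold change was 1.70 (SE 0.37, 95% interval 0.86 to 2.54), with an edgeR adjusted p of 0.0986.

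Taken singly, TLE3 rose by a log2 difference of 2.02 in KD1 (SE 0.43, edgeR adjusted p = 0.00762). In KD2 the log2 difference was 1.11 (SE 0.46, edgeR adjusted p = 0.123) and in KD3 1.82 (SE 0.43, 0.0777). The group value was 1.51 without KD1 (edgeR adjusted p = 0.330) and 1.67 without KD3 (0.00611). Over all 6 libraries it passed with DESeq2 (1.73, adjusted p = 0.00362) and with edgeR on all genes with a count (1.71, adjusted p = 0.00164). DESeq2 called 862 genes and edgeR without the filter 1359 genes, against 26 in the filtered fit. The only gene that overlaps TLE3 is MIR629, on the same strand and outside its exons, with 0 counts in all 6 libraries.

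TLE1, which binds HHEX and also serves RUNX, HES and TCF/LEF factors, had 52.6, 47.8 and 39.8 CPM in KD1, KD2 and KD3, against 35.2, 33.9 and 39.0 CPM in the controls. The groups do not overlap, but KD3 and control3 differed by less than counting error, with Poisson intervals of 36.6 to 43.2 CPM in KD3 and 36.0 to 42.3 CPM in control3. The means were 46.7 ± 6.45 CPM in the KD libraries and 36.1 ± 2.66 CPM in the controls (SD, n = 3 each; exact two-sided permutation p = 0.1). With library totals alone as scaling the groups overlap, and the exact permutation p was 0.2. The group log2 fold change was 0.37 (SE 0.15, 95% interval 0.04 to 0.71; edgeR adjusted p = 0.206). It was 0.28 without KD1 (edgeR adjusted p = 0.517) and 0.50 without KD3 (0.00836).

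In single libraries the log2 difference of TLE1 was 0.54 in KD1 (SE 0.18, edgeR adjusted p = 0.0551), 0.41 in KD2 (SE 0.18, 0.140) and 0.14 in KD3 (SE 0.18, 0.763). KD1 lay just outside the threshold. TLE1 and TLE3 were the 2 members above every control in each KD library, where 11.7% of the 14280 tested genes had all KD libraries above all controls and 13.3% had them below.

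TLE4, which is known for roles in blood cell and neuronal differentiation, had 181, 210.1 and 48.6 CPM in KD1, KD2 and KD3, against 70.6, 64.2 and 82.6 CPM in the controls. KD1 and KD2 were above every control and KD3 below every control, with 2688, 2941 and 690 counts in the KD libraries, against 945 to 1270 in the controls. The Poisson interval of KD3, 45.1 to 52.4 CPM, overlaps none of the controls. TLE4 rose by a log2 difference of 1.32 in KD1 (SE 0.16, 95% interval 0.97 to 1.67; edgeR adjusted p = 0.000266) and of 1.53 in KD2 (SE 0.16, 1.19 to 1.88; edgeR adjusted p = 0.000110). In KD3 it was −0.58 (SE 0.18, −0.97 to −0.18; edgeR adjusted p = 0.191), and without control2 −0.65 (adjusted p = 0.0115).

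The group means of TLE4 were 147 ± 86.1 CPM in the KD libraries and 72.5 ± 9.36 CPM in the controls (SD, n = 3 each; exact two-sided permutation p = 0.4). Its group log2 fold change was 1.02 (SE 0.47, 95% interval −0.09 to 2.12; edgeR adjusted p = 0.269). Without KD3 it was 1.46 (edgeR adjusted p = 3.83e-06), and without KD1 0.84 (0.544). The order of the KD libraries in TLE4 is not that in HHEX. KD2 and KD3, the libraries with low HHEX, were the highest and the lowest of all 6 libraries in TLE4. A processed pseudogene, AL353813.1, covers 253 of the 8187 merged exon bases of TLE4 on the same strand and had 0 counts in every library.

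AES had 31.8, 26.4 and 26.7 CPM in KD1, KD2 and KD3, against 24.3, 54.4 and 32.3 CPM in the controls. All 3 KD libraries lay within the range of the controls, and control2 was the highest of all 6. The means were 28.3 ± 3.02 CPM in the KD libraries and 37.0 ± 15.6 CPM in the controls (SD, n = 3 each; exact two-sided permutation p = 0.6). The group log2 fold change was −0.39 (SE 0.27, 95% interval −1.01 to 0.23; edgeR adjusted p = 0.436). It was 0.02 without control2 (edgeR adjusted p = 0.971). In single libraries the log2 difference was −0.22 in KD1 (SE 0.36), −0.49 in KD2 (SE 0.37) and −0.47 in KD3 (SE 0.37), with edgeR adjusted p-values of 0.725, 0.400 and 0.603. An antisense gene, AC005944.1, covers 815 of the 5298 merged exon bases of AES and had 0 counts in every library.

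TLE2 was near the limit of detection. It had 0.270, 0.643 and 0.775 CPM in KD1, KD2 and KD3 (4, 9 and 11 counts), against 0.448, 0.465 and 0.781 CPM in the controls (6, 7 and 12 counts). A floor of 3 counts corresponds to 0.195 to 0.224 CPM in these libraries. KD1 was below all controls, within counting error (0.0735 to 0.690 CPM), and KD2 and KD3 were within their range. The means were 0.563 ± 0.262 CPM in the KD libraries and 0.565 ± 0.187 CPM in the controls (SD, n = 3 each; exact two-sided permutation p = 0.9). TLE2 did not pass the filter on low counts and was not tested in the group fit. Without the filter edgeR gave a log2 fold change of −0.01 between the groups (SE 0.75, adjusted p = 1.00), and log2 differences of −1.04 in KD1 (SE 1.13), 0.18 in KD2 (SE 0.98) and 0.45 in KD3 (SE 0.95), none of which passed. TLE6, a divergent family member next to TLE2 on chromosome 19, had 0.809, 0.357 and 0.987 CPM in the KD libraries, against 1.20, 0.730 and 0.846 CPM in the controls (edgeR adjusted p = 0.716), and TLE7 had 0 counts throughout.

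Between the groups, 0 of the 5 tested members passed the edgeR threshold, where 26 of 14280 genes (0.182%; 0.105% higher and 0.077% lower) did. At an unadjusted p under 0.05 there were 2 tested members, TLE1 and TLE3, and 2937 genes. In KD1 2 of 5 tested members were called, TLE3 and TLE4, both higher, beside 15.4% of all tested genes. In KD2 1 of 5 was called, TLE4, beside 16.3%, and in KD3 0 of 5, beside 1.11%. The median log2 change over all tested genes was −0.01 between the groups, −0.04 in KD1, −0.04 in KD2 and −0.02 in KD3.

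**Figure D2:**
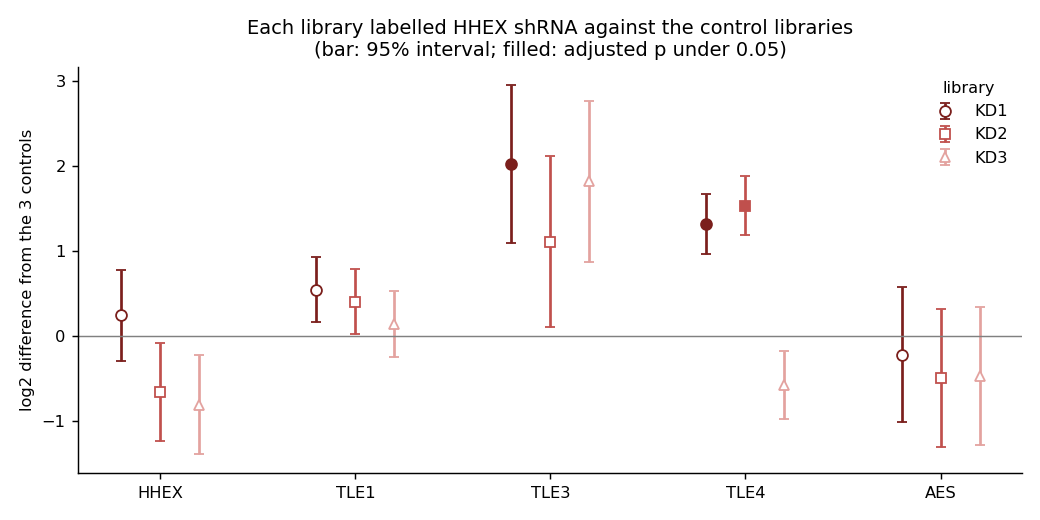
Log2 difference of each tested member from the 3 control libraries for KD1 (circle), KD2 (square) and KD3 (triangle), with 95% intervals from edgeR. Filled symbols passed an adjusted p of 0.05: TLE3 in KD1 (2.02) and TLE4 in KD1 (1.32) and KD2 (1.53).

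Levels of different genes were compared per kilobase of merged exons. TLE4 had 22.1, 25.7 and 5.94 CPM per kb in KD1, KD2 and KD3, against 8.63, 7.84 and 10.1 in the controls. TLE1 had 10.7, 9.74 and 8.12 CPM per kb in the KD libraries, against 7.17, 6.91 and 7.96 in the controls. AES had 5.99, 4.98 and 5.04 CPM per kb in the KD libraries, against 4.58, 10.3 and 6.09 in the controls. TLE4 was above TLE1 in each control, in KD1 and in KD2 and below it in KD3. The place of AES differed between controls, above both in control2 and below both in control1 and control3. HHEX, with 5.85, 3.14 and 2.82 CPM per kb in the KD libraries and 5.00, 5.07 and 4.74 in the controls, lay within the range of AES in the controls. TLE3 and TLE2 were the lowest members, both under 0.5 CPM per kb in every library. In the controls they overlapped, with 0.130, 0.0736 and 0.118 CPM per kb for TLE3 and 0.111, 0.115 and 0.193 for TLE2. In the KD libraries TLE3, with 0.438, 0.232 and 0.379 CPM per kb, lay above TLE2, with 0.0668, 0.159 and 0.192.

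The summed level of TLE1, TLE2, TLE3, TLE4 and AES was 39.3, 40.8 and 19.7 CPM per kb in KD1, KD2 and KD3, against 20.6, 25.2 and 24.5 in the controls. KD1 and KD2 were above every control and KD3 below every control. TLE4 made up 56.2%, 62.9% and 30.2% of this sum in KD1, KD2 and KD3, against 41.8%, 31.1% and 41.3% in the controls. TLE1 made up 27.2%, 23.9% and 41.3% in the KD libraries, against 34.8%, 27.4% and 32.5% in the controls. The makeup of KD3 leaned to TLE1 and that of KD1 and KD2 to TLE4, with TLE4 to TLE1 ratios of 2.07, 2.63 and 0.732 in the KD libraries, against 1.20, 1.13 and 1.27 in the controls. AES, the short member, made up 15.2%, 12.2% and 25.6% in the KD libraries, against 22.2%, 40.7% and 24.9% in the controls. TLE3 made up 1.11%, 0.569% and 1.93% in the KD libraries, against 0.631%, 0.292% and 0.484% in the controls, and TLE2 under 1% in all 6.

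HHEX per kb amounted to 14.9%, 7.70% and 14.3% of the summed TLE level in KD1, KD2 and KD3, against 24.3%, 20.1% and 19.4% in the controls. All 3 KD libraries were below all controls in this ratio, although HHEX itself and the summed level each overlapped between the groups. As a background, 13.3% of single tested genes had all KD libraries below all controls. In KD1 the numerator was above the controls and the sum far above them, whereas in KD3 HHEX was low and the sum was near that of control1. No test was run on these shares.

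**Figure D3:**
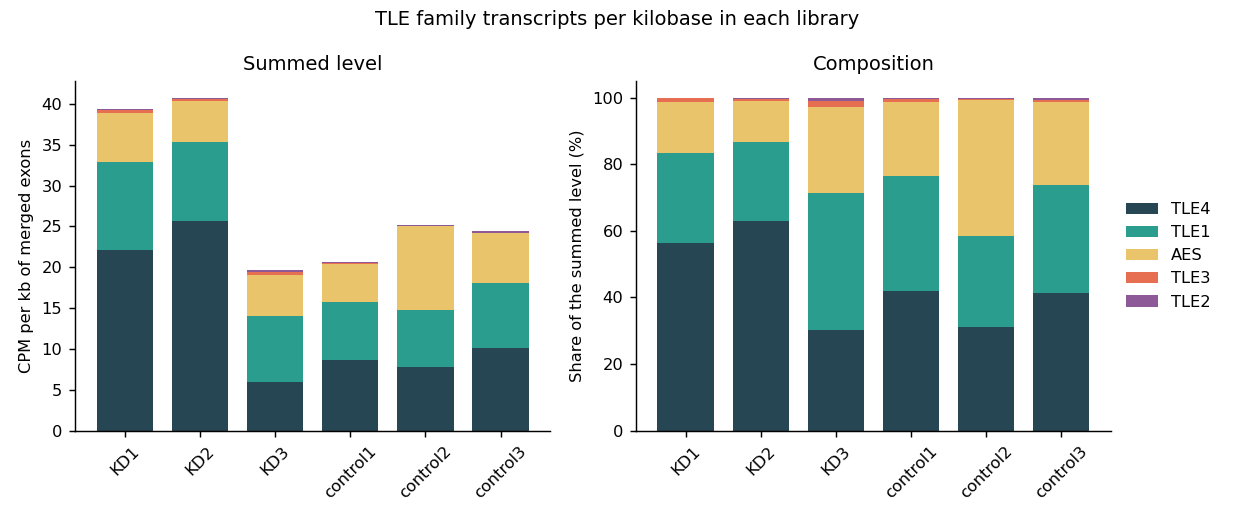
Left, summed CPM per kb of merged exons of TLE4, TLE1, AES, TLE3 and TLE2 (stacked colours) in each of the 6 libraries, KD libraries first; right, the same as shares in percent. The TLE4 share is 56.2% in KD1 and 62.9% in KD2, against 31.1% to 41.8% in the controls, and 30.2% in KD3.

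The genes with the most similar profiles were found by the root mean square (RMS) distance between log2 CPM over the 6 libraries, each gene centred on its control mean, among 10673 genes besides HHEX with a mean of at least 5 CPM. For HHEX these were ABHD11 (0.118), TMEM203 (0.158), ZNF500 (0.168), NUBP1 (0.174), BLOC1S3 (0.177), ZBTB12 (0.185), FBXO4 (0.190) and SFI1 (0.192). ABHD11, a mitochondrial hydrolase gene, had 10.4, 7.07 and 6.41 CPM in KD1, KD2 and KD3, against 10.8, 10.1 and 10.02 CPM in the controls. KD2 and KD3 were below every control and KD1 was within their range. None of the 8 passed the group test (edgeR adjusted p = 0.320 to 0.661). For every member the nearest genes were picked on these same 6 libraries. A pattern or test result that they share with the member is thus no separate finding.

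For TLE4 the nearest genes were FAM111B (RMS distance 0.147), CENPO (0.151), which encodes a centromere protein, and HMGA2 (0.157), which encodes a chromatin architectural protein. HMGA2 had 155, 163 and 43.6 CPM in KD1, KD2 and KD3, against 60.5, 59.3 and 55.4 CPM in the controls, so that KD3 was below every control as in TLE4. For TLE1 they were DPP3 (0.0311), DHX16 (0.0477) and FMR1 (0.0486), and for AES EPN1 (0.0677), MRPL34 (0.0680) and LY6E (0.0684). Control2 was the highest library in each of these 3 neighbours of AES, as it was in AES, which follows from their choice by profile. EPN1 had 162 CPM in control2, against 80.0 and 107 CPM in the other controls.

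TLE3 had no close match. The nearest were HSPB8 (0.333), HSPH1 (0.387) and HSP90AA1 (0.405), all of them heat shock protein genes. HSPH1 had 537, 539 and 596 CPM in KD1, KD2 and KD3, against 208, 218 and 214 CPM in the controls. It passed the group test with a log2 fold change of 1.39 (edgeR adjusted p = 0.0164), as HSP90AA1 did with 1.46 (0.0322), while HSPB8 had 1.499 (0.0768). For TLE2, at its few counts, the nearest were TRIP11 (0.171), BIRC3 (0.172) and TBCE (0.172).

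**Figure D4:**
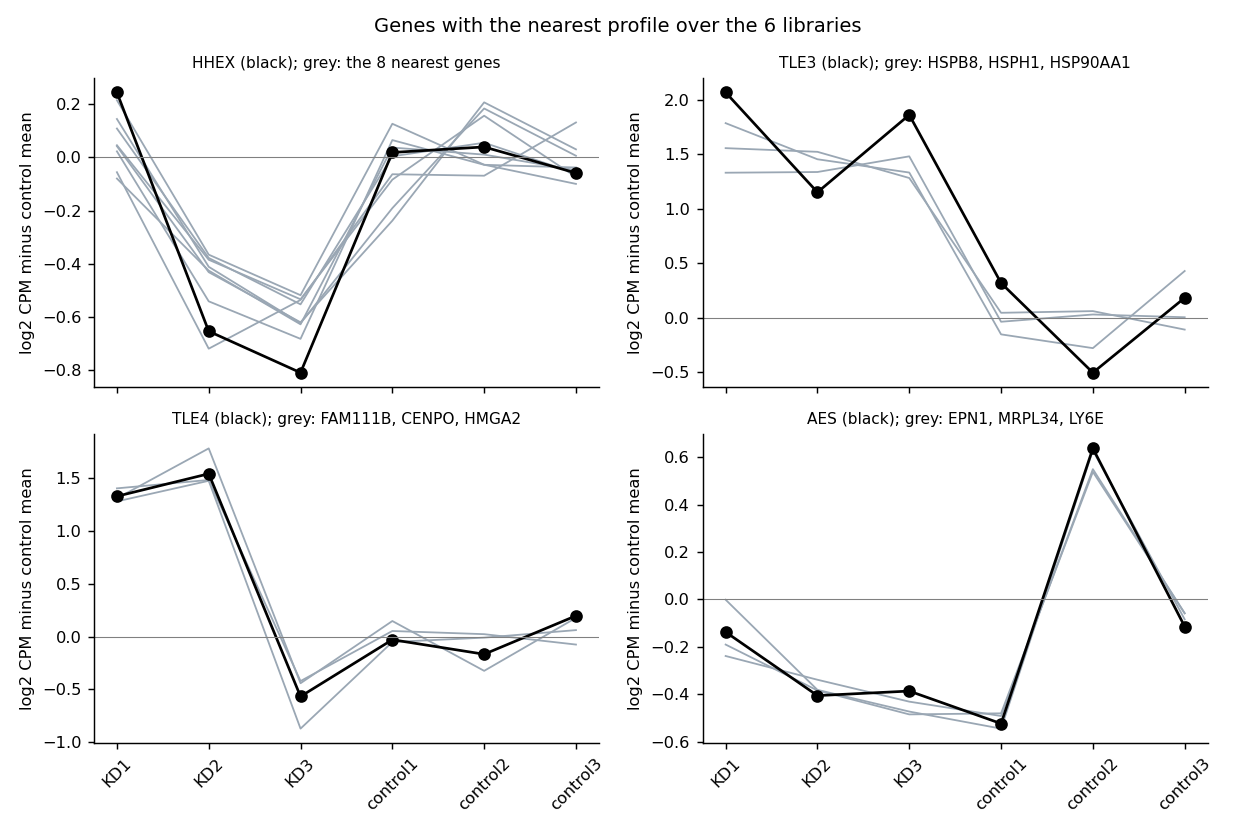
Log2 CPM minus the control mean over the 6 libraries, KD libraries at the left, for HHEX, TLE3, TLE4 and AES (black, points are libraries) and the genes nearest to each (grey lines). The panels differ in their vertical scale. In the TLE4 panel all 4 genes are high in KD1 and KD2 and low in KD3. In the AES panel all 4 peak at control2. The grey genes were picked for this likeness over the same libraries.

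Around HHEX on chromosome 10, KIF11, a mitotic kinesin gene 34556 bases away on the same strand, had 146, 161 and 42.8 CPM in KD1, KD2 and KD3, against 58.3, 58.3 and 52.4 CPM in the controls. It rose by a log2 difference of 1.37 in KD1 (edgeR adjusted p = 0.000125) and 1.52 in KD2 (7.01e-05) and was −0.40 in KD3 (0.319). KIF11 was high in KD1 and KD2 and low in KD3, whereas HHEX was high in KD1 only. IDE rose by 0.54 in KD2 (edgeR adjusted p = 0.0464), with 0.47 in KD1 (0.0793) and 0.14 in KD3 (0.747). MARCH5 and EXOC6 passed in no library, CYP26C1 had 0 counts throughout and CYP26A1 at most 0.195 CPM.

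Of 41 listed transcription factors known to recruit TLE proteins, 23 were tested and 0 passed, between the groups (0.182% of all tested genes did) or in KD1 (15.4%), KD2 (16.3%) or KD3 (1.11%). Their median log2 change was 0.37 between the groups, 0.36 in KD1, 0.21 in KD2 and 0.19 in KD3. Those with the smallest p included RUNX1 (log2 fold change 0.35, edgeR adjusted p = 0.189) and LEF1 (0.56, 0.240). RUNX1, a core partner of TLE in blood cell precursors, had 226, 234 and 197 CPM in KD1, KD2 and KD3, against 175, 159 and 183 CPM in the controls, with no overlap. LEF1, a Wnt effector that recruits TLE when beta-catenin is absent, had 8.36, 8.14 and 5.71 CPM in the KD libraries, against 4.78, 5.84 and 4.42 CPM in the controls, where KD3 overlaps control2.

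Of 17 subunits of co-repressor complexes and histone deacetylases, 16 were tested and 0 passed between the groups, with a median of 0.11. In KD1 1 was higher and 2 were lower, in KD2 1 was lower, and in KD3 0 passed, beside 15.4%, 16.3% and 1.11% of all tested genes called in KD1, KD2 and KD3. SIN3B, the scaffold of a deacetylase complex, had 72.6, 68.2 and 106 CPM in KD1, KD2 and KD3, against 138, 140 and 150 CPM in the controls. Every KD library was below every control, as in 13.3% of all tested genes. SIN3B fell in KD1 (log2 difference −0.97, edgeR adjusted p = 0.00196) and in KD2 (−1.06, 0.00116), and had −0.43 in KD3 (0.245) and −0.80 between the groups (0.0986). CTBP2 fell in KD1 (−0.53, edgeR adjusted p = 0.0392) and RBBP7 rose by 0.52 (0.0432). The deacetylases that TLE proteins bring along did not pass in any library: HDAC1 had 0.44, 0.29 and −0.13 in KD1, KD2 and KD3, and HDAC2 0.16, 0.05 and 0.11.

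All 10 listed enzymes that modify HHEX or TLE proteins were tested, with 0 called between the groups, 3 higher in KD1, 3 higher and 1 lower in KD2 and 0 in KD3, where 7.98% and 8.54% of all tested genes were called higher in KD1 and KD2, and 1.11% called in KD3. HIPK2, a kinase of TLE proteins, rose by 0.85 in KD1 (edgeR adjusted p = 0.0258) and 1.18 in KD2 (0.00435). VCP rose by 0.99 and 0.96 (0.00118 and 0.00136) and CDK1 by 1.32 and 1.20 (0.000173 and 0.000360). CSNK2A2, a catalytic subunit of casein kinase 2, which phosphorylates HHEX, fell in KD2 (−0.56, 0.0336). CDK1 had 216, 197 and 57.4 CPM in KD1, KD2 and KD3, against 88.8, 92.6 and 76.6 CPM in the controls, high in the libraries where TLE4 was high and lowest where TLE4 was lowest.

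Of 8 other binding partners of HHEX, 6 were tested, 0 passed between the groups (median 0.50), 2 were higher in KD1, 2 in KD2 and 1 in KD3, beside 7.98%, 8.54% and 0.77% of all tested genes. EIF4E, the cap-binding factor whose export function HHEX can inhibit, had 141, 135 and 94.2 CPM in KD1, KD2 and KD3, against 80.2, 80.6 and 70.6 CPM in the controls, with no overlap. EIF4E rose by 0.87 in KD1 and 0.81 in KD2 (edgeR adjusted p = 0.00268 and 0.00396) and had 0.29 in KD3 (0.435). GATA2 rose by 1.13 in KD1 and 1.14 in KD2 (0.000943 and 0.000924) and had 0.07 in KD3 (0.895). JUN, a component of AP-1, rose by 1.32 in KD3 (edgeR adjusted p = 0.00422) and had 0.33 in KD1 and 0.32 in KD2. SRF had 0.33 between the groups (edgeR adjusted p = 0.180).

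Of 17 genes reported as HHEX targets, 10 were tested and 0 passed between the groups (median −0.28). In KD1 1 was higher and 3 were lower, in KD2 2 were higher and 3 lower, and in KD3 0 passed, beside 15.4%, 16.3% and 1.11% of all tested genes called in KD1, KD2 and KD3. The 0 in KD3 is near that background. TIE1, an endothelial receptor gene, had 7.95, 6.07 and 10.4 CPM in KD1, KD2 and KD3, against 13.1, 14.9 and 20.1 CPM in the controls, and fell in KD1 (log2 difference −1.01) and KD2 (−1.40; edgeR adjusted p = 0.0435 and 0.0122). VEGFA, the angiogenic growth factor that HHEX and TLE can repress, had 84.9, 88.4 and 293 CPM in KD1, KD2 and KD3, against 224, 251 and 257 CPM in the controls. VEGFA fell in KD1 (−1.52) and KD2 (−1.47; edgeR adjusted p = 0.000174 and 0.000225) and had 0.26 in KD3 (0.479). The cell cycle inhibitor gene CDKN2B fell in KD1 (−1.79) and KD2 (−2.06; edgeR adjusted p = 0.00578 and 0.00309). CCND1 (cyclin D1) rose by 0.72 and 0.78 (0.0119 and 0.00826), and ITGAV by 0.60 in KD2 (0.0238). NRP1 (group log2 fold change −0.52) and CDKN2A (−1.29) did not pass in any comparison.

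Of 15 Wnt target genes, 8 were tested and 0 passed between the groups, with medians of 0.27 between the groups, 0.43 in KD1, 0.32 in KD2 and −0.05 in KD3. DKK1, a Wnt antagonist, and CCND1 were the 2 called genes of the list in KD1 and in KD2, both higher, beside 7.98% and 8.54% of all tested genes. The smallest group p were those of LEF1, TNFRSF19 (−1.12, edgeR adjusted p = 0.243) and TCF7 (0.49, 0.351). DKK1 had 178, 168 and 59.1 CPM in KD1, KD2 and KD3, against 96.2, 115 and 94.1 CPM in the controls, so that KD1 and KD2 were above and KD3 below all controls. AXIN2, the negative feedback gene of the pathway, had 1.01, 1.43 and 1.27 CPM in the KD libraries, against 1.20, 1.59 and 1.56 CPM in the controls, which overlap. Of beta-catenin and 8 co-factors all 9 were tested and 0 passed in any comparison; beta-catenin itself, CTNNB1, had 0.27 between the groups (edgeR adjusted p = 0.341) and BCL9 0.38 (0.192).

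**Figure D5:**
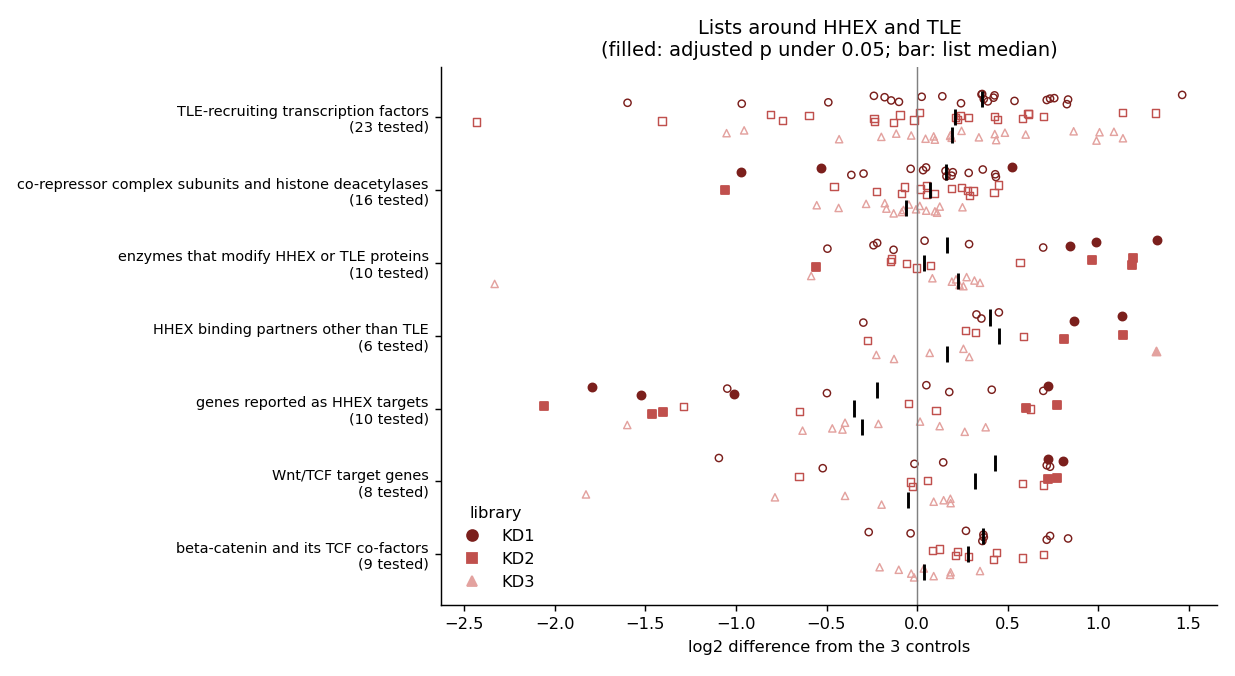
Log2 difference from the 3 controls of each tested gene of 7 lists around HHEX and TLE, for KD1 (circles), KD2 (squares) and KD3 (triangles); filled symbols passed an edgeR adjusted p of 0.05 and vertical bars are list medians. Of the filled symbols 1, JUN among the binding partners at 1.32, belongs to KD3.

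The labelled cell type was checked against its markers. Of the thyroid genes, NKX2-1 had 38.0, 34.9 and 18.0 CPM in KD1, KD2 and KD3, against 26.8, 50.4 and 34.5 CPM in the controls, and PAX8 and FOXE1 lay between 2.57 and 5.46 CPM. TG, TSHR and SLC5A5, which mark differentiated thyrocytes, were at most 0.299 CPM in every library; 4 of 12 thyroid genes were tested and 0 called. Of the 6 epithelial, 8 endothelial and 8 fibroblast markers and 7 nuclear RNA quality transcripts, 4, 4, 3 and 6 were tested. Over all tested genes, 7.98% were called higher and 7.43% lower in KD1, 8.54% and 7.71% in KD2 and 0.77% and 0.336% in KD3. KRT7 and KRT8 were called higher and EPCAM lower in KD1, and KRT7 higher in KD2. Epithelial sums were 1314 to 2143 CPM in the KD libraries and 1181 to 1557 CPM in the controls, with CDH1 at most 0.0747 CPM. Leukocyte markers summed to 4.36 to 4.99 CPM in the KD libraries and 3.74 to 5.31 CPM in the controls, with LYZ at 0 in all 6. Of the 8, 2 were tested and 0 called; PTPRC, not tested, had 0, 5 and 13 counts in KD1, KD2 and KD3, against 1, 0 and 1 in the controls. Endothelial markers summed to 23.4 to 28.2 CPM in the KD libraries and 40.6 to 44.8 CPM in the controls. Among single tested genes, 13.3% had all KD libraries below all controls. Of the 8 endothelial markers, TIE1 was called in KD1, TIE1 and ROBO4 in KD2 and CDH5 in KD3, all lower. VWF was at 0 in the controls and KDR at most 0.0705 CPM. Fibroblast markers summed to 14.6 to 48.1 CPM in the KD libraries and 43.8 to 56.0 CPM in the controls, and COL3A1 fell in KD3 (−2.20, edgeR adjusted p = 0.00116). Nuclear transcripts that mark RNA quality summed to 1029 to 1153 CPM in the KD libraries and 1123 to 1994 CPM in the controls; CCNL2 was called lower in KD1 and KD2. NEAT1 had 426, 462 and 502 CPM in KD1, KD2 and KD3, against 551, 1031 and 1114 CPM in the controls, all lower than the controls without passing. DUOX1, CD14, CSF1R, PECAM1, PDGFRB, COL1A1 and CCNL1 passed in no comparison. The part of these markers in the values of HHEX and the TLE genes was not tested. In bulk RNA, fewer cells of a kind and less RNA per cell cannot be told apart.

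The sources used here do not say whether the counting used strand, so that reads of overlapping genes could not be told apart. Whether reads in overlaps were left out was not tested: GPS2 and CSNK2B, which overlap other genes, had at most 1 and 18 counts a library. The 0 counts of AL353813.1 and AC005944.1 thus do not show that these genes were silent. In the annotation RUNX1, LEF1, TCF7, HDAC2, SIN3B, CTBP2, RBBP7, HIPK2, CSNK2A2, EIF4E, GATA2, VEGFA, NRP1, ITGAV, CDKN2A, CDKN2B, CCND1, DKK1, AXIN2, CTNNB1, KRT7, KRT8, PAX8, NKX2-1, COL3A1, ROBO4, EPCAM, CDH1, NEAT1, CCNL1, TG, TSHR, DUOX1, CSF1R, LYZ, PTPRC, PECAM1, VWF and KDR overlap another gene, and the values of these genes are uncertain to that extent.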

How the data were processed

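Per the labels, RNA was isolated with Trizol and libraries were made with TIANSeq kits for mRNA capture and library preparation. The authors deposited raw counts per gene for the 6 libraries, per the file headers; they are whole numbers whose totals differ between libraries. The sources used here give no aligner, counter, genome build or strand setting. A further 6 columns of values per library were not used. Of 59733 rows, 998 name no gene; they held 0.239% to 0.298% of the counts and were left out throughout.

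The test of both fits was edgeR 4.0.16 (R 4.3.3): filterByExpr by group, TMM scaling, glmQLFit with robust estimation and glmQLFTest, with Benjamini-Hochberg adjustment over all 14280 tested genes and a threshold of 0.05. One fit compared the 2 groups. A second gave each KD library a level of its own, so that its spread comes from the 3 controls. Both were tested on simulated counts with the spread of the controls. The group fit recovered 69.7% of 2-fold and 99.0% of 4-fold changes. The fit of single libraries recovered 43.4% to 44.4% of 2-fold and 86.6% to 92.8% of 4-fold changes. False calls were 6 to 9 among 13838 unchanged genes. In the simulation all KD libraries shared the same changes and varied as the controls did. In the data KD3 stood apart, so that the rates of the group fit need not hold there. The false calls of the single-library fit cannot check its assumption, since the simulation was built on it. A change that did not pass may thus have been missed. SEs come from the log2 fold change and the F statistic. CPM used TMM-scaled totals over named genes, and profiles used log2 CPM with a prior count of 2. DESeq2 1.42.0, RLE and no scaling, no filter, leaving out each library and a replicate block were the alternatives. Whether the column numbers pair the libraries is not known. Correlations of the deviations of KD and control libraries with the same number were −0.05, −0.07 and 0.12. Those of the other pairs ranged from −0.14 to 0.18. The positive values were KD1 with control2 (0.18), KD2 with control1 (0.12) and KD3 with control3 (0.12). With 3 libraries a group such values cannot settle a pairing. The columns are not tied to the titles, so that no other pairing was made.

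The members, lists and rules were chosen with earlier results of these data known, so that none is independent evidence. The 14 lists held 168 entries, all matched. Named were all members, the 3 genes of smallest group p per list, the nearest profiles and the genes around HHEX; some genes that this rule takes are not reported here. RBBP7, HDAC1, HDAC2, CDK1, CSNK2A2, JUN, VEGFA, CDKN2B, CCND1, ITGAV, DKK1, AXIN2, FOXE1, TLE7, CDH5, CDH1, TG, TSHR, SLC5A5, GPS2, CSNK2B, PTPRC, LYZ, VWF and KDR were named after their values were seen.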

Additional observations from a re-analysis of the deposited data

How the results depend on the processing

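Of 145 recomputed log2 values, 131 kept their direction and their side of the threshold. Of 29 counts of genes, 17 stayed within 1.5 times the reported one. Of 12 differences of mean CPM, 11 kept their sign and moved by less than the SD between libraries. Of 10 shares, 9 moved by less than that SD. The number of genes called between the groups, 26 in the reported fit, was 1359 without the filter on low counts, 862 with DESeq2, and 0 to 4675 when 1 library was left out (0 without KD1, KD2, control2 or control3, 1 without control1 and 4675 without KD3). With a replicate block on the column number it was 30, and the group log2 fold change of TLE4 was 0.81. In KD3 468 genes were called without the filter and 165 to 619 without 1 control, and in KD1 1560 to 3510. The cause of these shifts was not tested.

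Direction held for HHEX, TLE1, TLE3 and TLE4 between the groups under every alternative run. HHEX ranged from −0.73 to −0.11 without 1 library. TLE3 passed without the filter (1.71) and with DESeq2 (1.73) and ranged from 1.51 to 1.93 without 1 library, TLE1 from 0.28 to 0.50 and TLE4 from 0.67 to 1.46. AES ranged from −0.59 to 0.0197 between the groups and from −0.42 to 0.19 in KD1, reversed without control2, and in KD2 from −0.68 (adjusted p = 0.0289 by edgeR without control1) to −0.0731. TLE1 in KD1 passed with RLE scaling (0.57, edgeR adjusted p = 0.0432) and without control2 (0.0181). It ranged from 0.52 to 0.61 without 1 control, and without scaling it was 0.497 and did not pass. TLE3 in KD3 passed without the filter (1.82, edgeR adjusted p = 0.00829), without control1 (0.00493) and without control2 (0.0189), and ranged from 1.61 to 1.99, and TLE4 in KD3 from −0.65 to −0.47. The difference of mean CPM of TLE2 turned to 0.00535 with RLE scaling, and with the longest transcript as length the mean TLE1 share was 25.4% in the KD libraries and 26.1% in the controls, against 30.8% and 31.6% with merged exons. Depth limits TLE2 and TLE3, which rest on 4 to 82 counts a library. Shares from the deposited values per length were planned and not run.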
